A study of Mus musculus with 29 samples.

Results

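The genes described here are 56 cytosolic ribosomal protein genes, taken from a written list of symbols. The list sets no condition on measured values, although earlier results of these data were known when it was drawn up. Each symbol was matched to one protein-coding gene, so that the 56 genes stand among the 56748 genes counted in the aortic arch of mice. They comprise 34 genes of the large subunit (Rpl) and 22 genes of the small subunit (Rps), and 23 further ribosomal protein genes that were not on the list are given beside them. RNA was sequenced from 29 mice, 1 sample per mouse, in 6 groups. WT (Ercc1+/+) and Ercc1Δ/- littermates were examined at 6 weeks on ad libitum (AL) feeding (5 mice of each genotype) or at 22 weeks on AL feeding (5 WT and 4 Ercc1Δ/- mice) or on dietary restriction (DR, 5 mice of each genotype). Ercc1Δ/- mice carry 1 null and 1 truncated allele of Ercc1, a subunit of an endonuclease of DNA repair, in every cell of the body, and both genotypes had the same F1 hybrid background of C57BL6J and FVB and the same AIN93G pellets. Food was reduced stepwise from 7 weeks and stood at 30% restriction from 9 weeks onward. The groups held 2 or 3 males and 2 females each. Sample 003, a WT female of 22 weeks on AL, was left out by the study for its low read counts and is left out here unless it is named, which leaves 3 males and 1 female in that group.

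Ribosomal proteins assemble with ribosomal RNA into the small subunit, which reads the mRNA, and the large subunit, which joins the amino acids. Their mRNAs are among the most abundant short transcripts of a cell, and a run of pyrimidines at their 5′ end, the TOP motif, places their translation under the control of the mTOR kinase, which responds to nutrients and growth factors. Several of the proteins are also known for roles outside the ribosome: Rpl5 and Rpl11 bind Mdm2, the ligase that degrades p53, and Rps6 is the classic substrate of the S6 kinases.

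The bases around the annotated transcription start are shown for 8 of the genes, whose annotated starts differ in whether a tract like the TOP motif was found. Each line gives 10 bases before and 20 bases from the start (RefSeq, GRCm38.p6, 5′ to 3′ on the gene's own strand), and capitals mark an unbroken run of C and T of at least 6 bases that begins with C within 5 bases of the start. The windows are Rps6 at chr4:86857348-86857377 (- strand), Rpl18 at chr7:45718061-45718090 (+ strand), Rpl38 at chr11:114668570-114668599 (+ strand), Rps26 at chr10:128626487-128626516 (- strand), Rps25 at chr9:44407704-44407733 (+ strand), Rps15 at chr10:80292421-80292450 (+ strand), Rpl6 at chr5:121204491-121204520 (+ strand) and Rpl5 at chr5:107900518-107900547 (+ strand).
Rps6: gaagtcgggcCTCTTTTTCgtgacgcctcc
Rpl18: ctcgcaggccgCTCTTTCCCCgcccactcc
Rpl38: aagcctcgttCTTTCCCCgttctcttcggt
Rps26: gcaagccgccggatCCTCTTTCgagtcttg
Rps25: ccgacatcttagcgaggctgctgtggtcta
Rps15: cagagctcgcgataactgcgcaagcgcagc
Rpl6: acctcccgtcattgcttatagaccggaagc
Rpl5: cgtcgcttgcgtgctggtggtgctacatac

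An annotated start was found for 46 of the 56 genes, and 21 of the 46 (45.7%) held such a tract, as did 1231 of the 9376 tested genes with a start (13.1%). The first 4 genes shown hold one and the other 4 do not, which describes these annotated starts and says nothing of the starts used in the aorta. The letters CCGGAAG on either strand of the 300 bases around the start (250 before and 50 from it) were found in 19 of the 46 genes (41.3%) and in 20.1% of the tested genes, and CACGTG, which reads the same on both strands, in 6 of the 46 (13.0%) and in 11.8%. The motifs were searched separately, and a gene could hold more than 1.

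Counts on genes totalled 921167 to 9616382 in the 28 samples and 400410 in sample 003. The 56 genes took between 1.24% and 2.02% of the gene counts of a sample, which was 13872 to 143629 counts. Depth differed between groups: at 22 weeks it was 3903589 to 9616382 counts in WT and 1294980 to 3855444 in Ercc1Δ/- mice on AL, and 2660422 to 6124471 in WT and 921167 to 2572523 in Ercc1Δ/- mice on DR. Ercc1 itself was lower in Ercc1Δ/- aortas in the 3 genotype comparisons (log2 fold change -1.41 to -0.97, edgeR adjusted p at most 0.00271). All 9 smooth muscle markers of the aortic wall, among them Myh11 and Acta2, were tested, and their summed normalized counts were 62588 to 160315 in the 28 samples. In bulk RNA, fewer cells of a type and less RNA per cell cannot be told apart.

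To give normalized counts, each count was divided by the library's TMM-scaled size and brought to a size of 3683502, which is the mean. A gene was tested where over 10 of the 28 samples held over 10 counts of it, which was so for 12353 genes and for 55 of the 56. Rpl24 was the exception, with 56 counts over the 28 samples and at most 7 in 1 sample. Rpl13a (645 counts) and Rps10 (444 counts) passed, but 59.3% and 53.6% of the exon bases of their canonical transcripts were shared on the same strand with exons of the loci Gm45713 and Gm49804 in the annotation used here, as were 71.5% of those of Rpl24 with Gm28037 (GRCm39, chr7:44774982-44778263, chr17:27849390-27855643 and chr16:55786638-55791798). These 3 loci had 0 counts, and a read on bases that belong to 2 genes is set aside as ambiguous by the counting program, so the levels of these 3 genes are uncertain. The other 53 genes shared at most 10.2% of their exon bases with exons of another gene and had 5148 to 87464 counts each. Overlaps outside exons were not examined, although reads in introns count too.

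Among those 53 genes the mean level per kb of coding length covered a 5.83-fold range around a median of 1755 normalized counts per kb. Rps14 (mean of 28 samples 3874 normalized counts per kb), Rpl21 (3419.9) and Rps4x (3181) were the highest, and Rpl27 (859.6), Rpl15 (789.8) and Rpl19 (665) the lowest. Rpl4 gave the highest normalized count that was not divided by length, with a mean of 3159 and a coding length of 1257 bases. Reads of these genes can also fall on their many processed pseudogenes. Of 239 annotated pseudogene loci named for one of the genes, 132 had at least 1 count, and Rps2-ps10 held 20788 counts over 28 samples beside 41770 on Rps2, so that the level of Rps2 is uncertain. Rps7-ps3, Rps23-ps1 and Rpl3-ps1 held 10.6%, 10.7% and 11.3% of the counts of their parent genes.

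**Figure D1:**
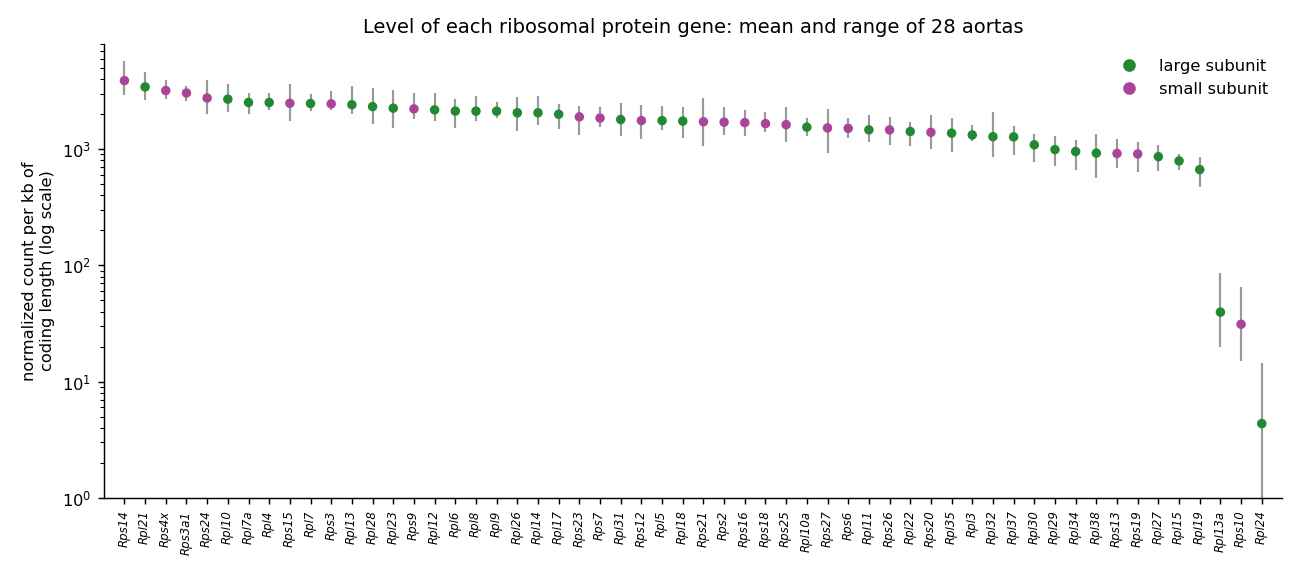
Mean normalized count per kb of coding length of the 56 genes in order of level on a log axis, with vertical lines from the lowest to the highest of 28 samples (drawn from 1 upward, so that the 0 counts of Rpl24 are not seen). The 53 genes without a large exon overlap with another locus lie within a 5.83-fold range, while Rpl13a, Rps10 and Rpl24 stand far below them.

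The summed share of the 56 genes differed between the groups by less than 0.4 percentage points. In WT mice of 6 weeks it was 1.32, 1.30, 1.45, 1.37 and 1.32% of gene counts (mean 1.35% ± 0.0606, SD, n = 5), and in Ercc1Δ/- mice of 6 weeks 1.43, 1.24, 1.36, 1.61 and 1.46% (1.42% ± 0.134, SD, n = 5). At 22 weeks on AL it was 1.41, 1.42, 1.45 and 1.49% in WT (1.44% ± 0.0383, SD, n = 4) and 1.65, 1.56, 2.02 and 1.60% in Ercc1Δ/- mice (1.71% ± 0.21, SD, n = 4), in the order of samples 004, 005, 013 and 026. Each of the 4 Ercc1Δ/- samples lay above each WT sample there, and sample 013 lay far above the other 3.

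On DR the share was 1.63, 1.54, 1.54, 1.61 and 1.60% in WT (1.58% ± 0.0405, SD, n = 5) and 1.74, 1.61, 1.64, 1.80 and 1.55% in Ercc1Δ/- mice (1.67% ± 0.102, SD, n = 5). The 5 WT samples on DR lay above the 4 WT samples on AL, and the samples of both genotypes on DR overlapped. Without sample 013 the mean of Ercc1Δ/- mice on AL was 1.60% ± 0.0422 (SD, n = 3), between that of WT and Ercc1Δ/- mice on DR. Sample 003 lay just above the 4 WT samples of its group. No test was made on this sum, since its members were chosen.

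**Figure D2:**
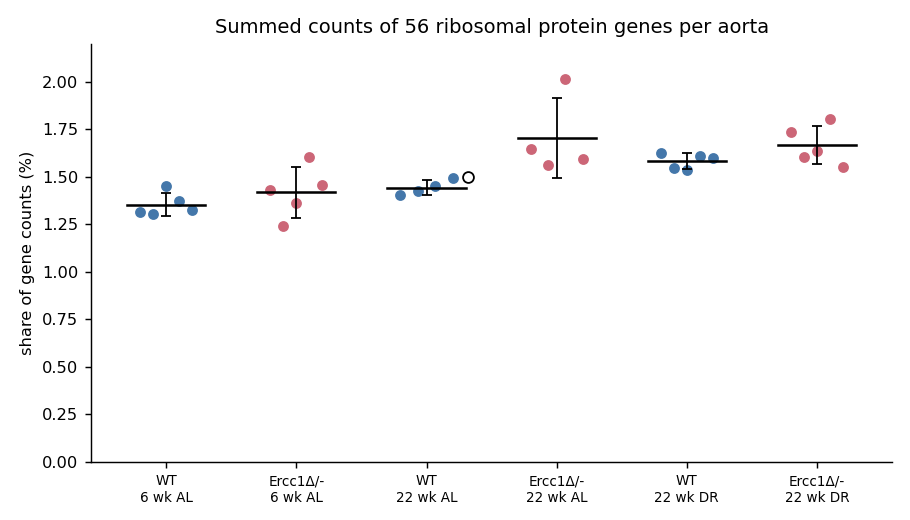
Counts of the 56 genes as a percentage of all gene counts, 1 point per mouse (blue WT, red Ercc1Δ/-, open circle sample 003), with the mean and SD of each group without sample 003. The 5 WT samples on DR (1.54% to 1.63%) lie above the 4 WT samples on AL (1.41% to 1.49%), and sample 013 stands at 2.02%.

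In Ercc1Δ/- mice of 22 weeks on AL, 53 of the 55 genes had a positive log2 fold change against WT mice, with a median of 0.21 (1.16-fold) beside 0.027 for all 12353 genes. Of the 55, 18 reached the 1.2-fold limit upward. By edgeR 0 of the 55 were DEGs (1.2-fold or more, with an adjusted p no higher than 0.05), whereas 12.0% of all genes were, and DESeq2 called 0 of them too. An unadjusted p under 0.05 was reached by 19 of the 55 (34.5%) and by 26.1% of all genes, and in 6 genes (Rpl5, Rpl30, Rps3, Rps4x, Rps13 and Rps15) each Ercc1Δ/- sample lay above each WT sample, beside 9.01% of all genes.

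Rps15, a protein of the small subunit (chr10:80128249-80129955, GRCm39), had the smallest p of the 55 in this comparison. It stood at normalized counts of 1097, 1027, 1568 and 1207 in Ercc1Δ/- mice (1225 ± 241, SD, n = 4) and 1008, 915, 997 and 983 in WT mice (976 ± 41.9, SD, n = 4). The groups did not overlap, and sample 013 was the highest of the 8. The difference was 0.36 ± 0.12 (SE) on the log2 scale (edgeR adjusted p = 0.0637, two-sided exact permutation p = 0.0286, the smallest that 4 against 4 samples allow). In WT mice the 5 samples on DR (1036 to 1109) also lay above the 4 samples on AL.

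Rpl38, a small protein of the large subunit, had the highest log2 fold change of the 55 (0.42 ± 0.17, SE, edgeR adjusted p = 0.112). Its normalized counts were 249.8, 173, 282 and 244 in Ercc1Δ/- and 160.1, 181, 183 and 195 in WT mice, so that 3 of the 4 Ercc1Δ/- samples lay above the WT samples and sample 005 among them. The comparison depended on sample 013. Without it the median over the 55 genes was 0.10, 42 genes remained positive, and 1 reached an unadjusted p under 0.05. The count of 19 also fell without sample 004 (11), 012 (8), 018 (11) or 020 (10), without the sex term (9) and without the filter on low counts (4, with a median of 0.14), and with sample 003 added it was 3, with a median of 0.14. Of all 12353 genes, 3183 had an unadjusted p under 0.05 without sample 013 and 2750 with sample 003 added. Sample 013 had the lowest gene count of its group (1294980) and the highest share of reads outside genes (9.43%, beside 7.84% to 8.34% in the other 3), and it stood apart for skeletal muscle markers. These 7 markers summed to 815 normalized counts in sample 013, among them Myh4 (421), Tnnt3 (145) and Acta1 (103), beside 7.87 to 43.2 in the other 27 samples. Its adipocyte markers summed to 2349.5, beside 5709 to 11174 in the other 3 samples of its group. Its erythroid markers summed to 3309 (214 to 557 in those 3) and its cardiac markers to 1376 (759 to 1059 in those 3). Both sums lay within the range of the other 27 samples (48.2 to 5724 and 268 to 2201). In all Ercc1Δ/- samples of 22 weeks on AL the share of mitochondrial counts (5.37% to 5.96%) and that of reads aligned to more than 1 place (5.19% to 5.74%) lay above those in the WT samples (2.47% to 3.72% and 3.66% to 4.46%). The part of these differences in the result was not tested.

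From 6 to 22 weeks on AL, 54 of the 55 genes had a positive log2 fold change in Ercc1Δ/- mice, with a median of 0.22 (1.17-fold) beside 0.0074 for all genes. Again 0 of the 55 were DEGs by edgeR, against 4.69% of all genes, and DESeq2 called 1, Rpl5, while 23 (41.8%) had an unadjusted p under 0.05, against 17.8% of all genes. The groups separated upward in 0 of the 55, against 3.41% of all genes. In WT mice over the same interval the median was 0.03 beside -0.00081 for all genes, 39 of the 55 genes were positive, 0 were DEGs (0.235% of all genes) and 0 had an unadjusted p under 0.05 (8.64% of all genes).

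Rps25 (chr9:44318436-44322627, GRCm39), a small subunit protein used by some internal ribosome entry sites, had the smallest p with age in Ercc1Δ/- mice. Normalized counts of Rps25 were 542, 430.1, 434, 617 and 589.8 at 6 weeks (523 ± 86.7, SD, n = 5) and 687, 541, 862 and 789 at 22 weeks (719.8 ± 139, SD, n = 4). The groups overlapped through sample 005 alone, the second value at 22 weeks. The difference was 0.45 ± 0.14 (SE) on the log2 scale (edgeR adjusted p = 0.0813, two-sided exact permutation p = 0.0635). In WT mice Rps25 was at 563 ± 106 at 6 weeks and 574 ± 56 at 22 weeks (SD, n = 5 and 4), a log2 difference of 0.038 ± 0.14 (SE, edgeR adjusted p = 0.982).

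The test of the difference between the genotypes in the effect of age called 0 of the 55 genes (0.842% of all genes), although 52 of them were positive (median 0.20 beside 0.0097 for all genes) and 1, Rpl5, had an unadjusted p under 0.05 (11.4% of all genes). For Rpl5 the log2 difference of the age effects was 0.36 ± 0.14 (SE, edgeR adjusted p = 0.286). The age effect in Ercc1Δ/- mice depended on single samples. Without sample 013 the median was 0.12 and 2 genes had an unadjusted p under 0.05, against 10 without sample 008, 13 without sample 015 and 15 with sample 003 added. Of all 12353 genes, 2096 had such a p without sample 013. In the interaction the median of the 55 was 0.084 without sample 013. Without sample 023 it was 0.27, and 13 of the 55 had such a p, beside 1433 of all 12353 genes. Without sample 023, an Ercc1Δ/- mouse of 6 weeks, 5 genes (Rpl10, Rpl14, Rpl31, Rpl35 and Rps25) passed as DEGs with age. Of all 12353 genes, 567 did.

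In WT mice the levels on DR lay slightly above those on AL in nearly the whole family. All 55 genes had a positive fitted log2 fold change, from 0.0022 (Rpl27) to 0.41 (Rps10), and in 54 the mean normalized count was higher on DR than on AL. The fitted values had a median of 0.16 (1.11-fold) beside 0.01 for all genes, and a middle range from 0.12 to 0.20. In 20 of the 55 genes (36.4%) each of the 5 DR samples lay above each of the 4 AL samples, which was so in 2.46% of all genes. The 55 genes share the same libraries and tended to move together, so these 20 are not independent of each other. Across the 28 samples the median correlation of a gene with the rest of the 55 was 0.70. For other genes the median correlation with the 55 was -0.020. An unadjusted p under 0.05 was reached by 14 of the 55 (25.5%) and by 12.8% of all genes, and 0 were DEGs, against 1.28% of all genes. The differences were small beside the limit of the test: 4 genes reached 1.2-fold, and in 53 of 55 the upper end of the 95% interval (normal, from the fitted SE) stayed under 1.5-fold. The SE of these abundant genes was small as well, with a median of 0.0943 on the log2 scale beside 0.142 for all genes.

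Rpl6 (chr5:121342541-121347580, GRCm39), a protein of the large subunit, had the smallest p for DR in WT mice. The 5 samples on DR held normalized counts of 1983, 2347, 1894, 2196 and 2043 (2093 ± 179.8, SD, n = 5) and the 4 on AL 1741, 1750.2, 1778 and 1665 (1734 ± 48.4, SD, n = 4). The lowest DR sample lay above the highest AL sample. The log2 difference was 0.27 ± 0.09 (SE, edgeR adjusted p = 0.162, two-sided exact permutation p = 0.0159, the smallest that 5 against 4 samples allow).

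Rps6 (chr4:86748406-86775674, GRCm39) showed the same separation with a smaller step. Its normalized counts were 946, 1006, 1012, 996 and 1005 in WT mice of 6 weeks, 1092, 1062, 1068 and 1165 at 22 weeks on AL and 1181, 1263, 1188, 1166 and 1210.0 at 22 weeks on DR. Each sample of 22 weeks lay above each sample of 6 weeks, and each DR sample lay above each AL sample of 22 weeks. The log2 difference was 0.14 ± 0.087 (SE) with age in WT (edgeR adjusted p = 0.71) and 0.13 ± 0.081 (SE) with DR in WT (edgeR adjusted p = 0.541). It was the 1 gene of the 55 whose groups separated upward with age in WT mice, beside 1.74% of all genes. Sample 003, where Rps6 stood at 900.0, ended the separation with age but not that with DR.

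The direction with DR in WT mice was positive for 51 to 55 of the 55 genes when any 1 sample was left out, with medians of 0.14 to 0.17. The number with an unadjusted p under 0.05 ran from 5 (without sample 012) to 14, and was 7 to 9 without sample 007, 017, 018, 020, 021 or 025, with library size only (8) and without the filter on low counts (7). With sample 003 added, 47 of the 55 were positive and the median was 0.12. An unadjusted p under 0.05 was then reached by 6 of the 55 and by 1355 of all 12353 genes. Reads outside genes made up 7.48% to 9.09% on DR and 7.27% to 8.14% on AL, mitochondrial counts 2.88% to 5.12% and 2.47% to 3.72%.

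**Figure D3:**
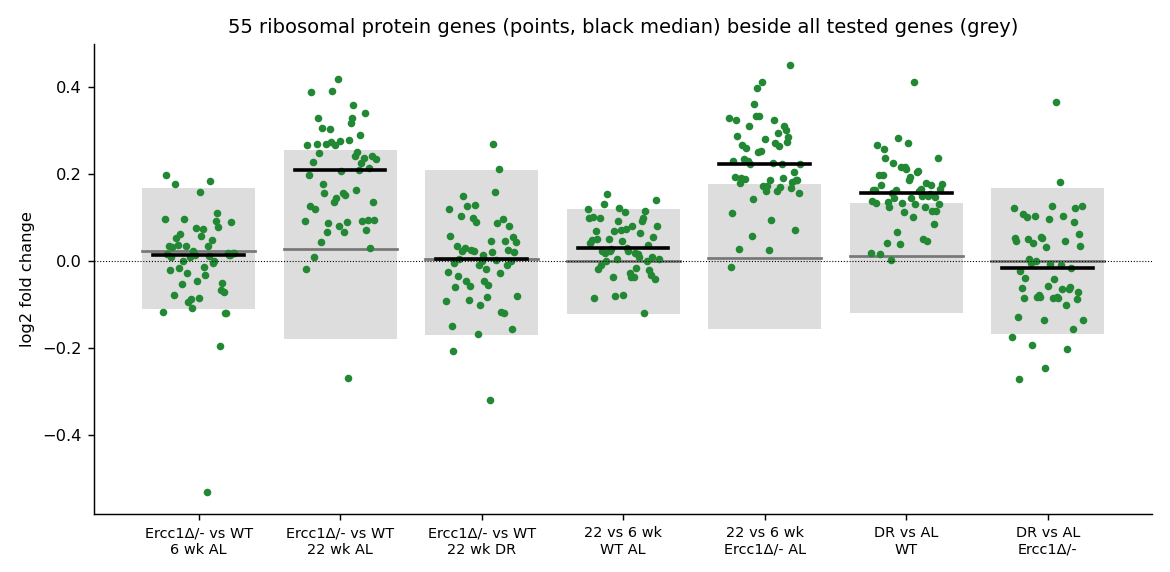
Log2 fold change of the 55 tested genes (points) in the 7 comparisons of 2 groups, with their median (black line), beside the median (grey line) and the middle range from the first to the third quartile (grey box) of all 12353 tested genes. The points lie mostly above 0 for genotype at 22 weeks on AL, age in Ercc1Δ/- mice and DR in WT mice (medians 0.21, 0.22 and 0.16) and around 0 in the other 4.

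In Ercc1Δ/- mice the family stood at about the same level on DR and on AL. The median log2 fold change was -0.017 beside 0.00012 for all genes, 23 of the 55 genes were positive and 32 negative, 0 were DEGs (1.64% of all genes) and 0 had an unadjusted p under 0.05 (15.0% of all genes). In 0 of the 55 did each DR sample lie above each AL sample (2.0% of all genes). Rpl10, a protein at the core of the large subunit, had the smallest p. Its normalized counts were 1878, 1574, 1814, 1662 and 1547 on DR and 1854, 1737, 2341 and 1727 on AL, which overlapped, and the log2 difference was -0.18 ± 0.089 (SE, edgeR adjusted p = 0.359). This near-zero median depended on sample 013. Without it the median was 0.092 and 40 of the 55 were positive. An unadjusted p under 0.05 was then reached by 11 of the 55 and by 1825 of all 12353 genes. Without sample 029 the median of the 55 was 0.015.

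In the test of the difference between the genotypes in the effect of DR, most genes had the same sign and 0 passed. The interaction was negative in 52 of the 55 (median -0.17 beside -0.015 for all genes), that is, a smaller or more negative effect of DR in Ercc1Δ/- than in WT mice. By edgeR and DESeq2 it called 0 of the 55 (0.0971% of all genes), and Rpl5, Rpl18, Rpl19, Rps9 and Rps20 had an unadjusted p under 0.05 (9.09%, against 8.72% of all genes). Rps9 had the smallest p, with -0.31 ± 0.12 (SE, edgeR adjusted p = 0.463). Without sample 013 the median was -0.077 and 37 of the 55 were negative, and with sample 003 added it was -0.14 with 0 genes at an unadjusted p under 0.05. That number ran from 0 to 12 when any 1 sample was left out. Both interactions and most of the comparisons above use the AL groups of 22 weeks, so their values are not independent of each other.

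Between the genotypes on DR the median of the family was near 0. The median log2 fold change of Ercc1Δ/- against WT mice was 0.0034 beside 0.0039 for all genes, 30 of the 55 were positive, and 0 were DEGs while 13.0% of all genes were. Rps14 and Rps19 had an unadjusted p under 0.05 (3.64%, against 26.1% of all genes), and in 0 of the 55 did each Ercc1Δ/- sample lie above each WT sample (3.08% of all genes). Rps14 stood at 2139, 2322, 1876, 2399 and 1896 normalized counts in Ercc1Δ/- mice (2126 ± 239, SD, n = 5) and 1681, 1935, 1713, 1803 and 1719 in WT mice (1770.0 ± 103, SD, n = 5). The groups overlapped, since 1 WT sample lay above the lowest Ercc1Δ/- samples, and the log2 difference was 0.27 ± 0.11 (SE, edgeR adjusted p = 0.126, two-sided exact permutation p = 0.0238).

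At 6 weeks, before DR began, the median was 0.014 beside 0.023 for all genes, 34 of the 55 were positive, 0 were DEGs (1.7% of all genes) and 0 had an unadjusted p under 0.05 (12.8% of all genes). The groups separated upward in 0 of the 55 (1.07% of all genes). Rpl18, of the large subunit, had the smallest p. Its normalized counts were 1023, 839, 917, 924 and 1086 in Ercc1Δ/- and 901, 867, 695, 836 and 933 in WT mice, which overlapped, with a log2 difference of 0.18 ± 0.089 (SE, edgeR adjusted p = 0.418). The median turned negative without sample 001, 009, 023, 024 or 027 (-0.057 to -0.0016), and also with thinning or without the filter on low counts. In all 55 genes the upper end of the 95% interval stayed under 1.5-fold at 6 weeks, and the same was so with age in WT mice and for genotype on DR. Downward, the interval passed 1.5-fold for Rps10 and Rps21 at 6 weeks, for Rpl13a with age in WT mice and for Rpl13a and Rps10 for genotype on DR.

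**Figure D4:**
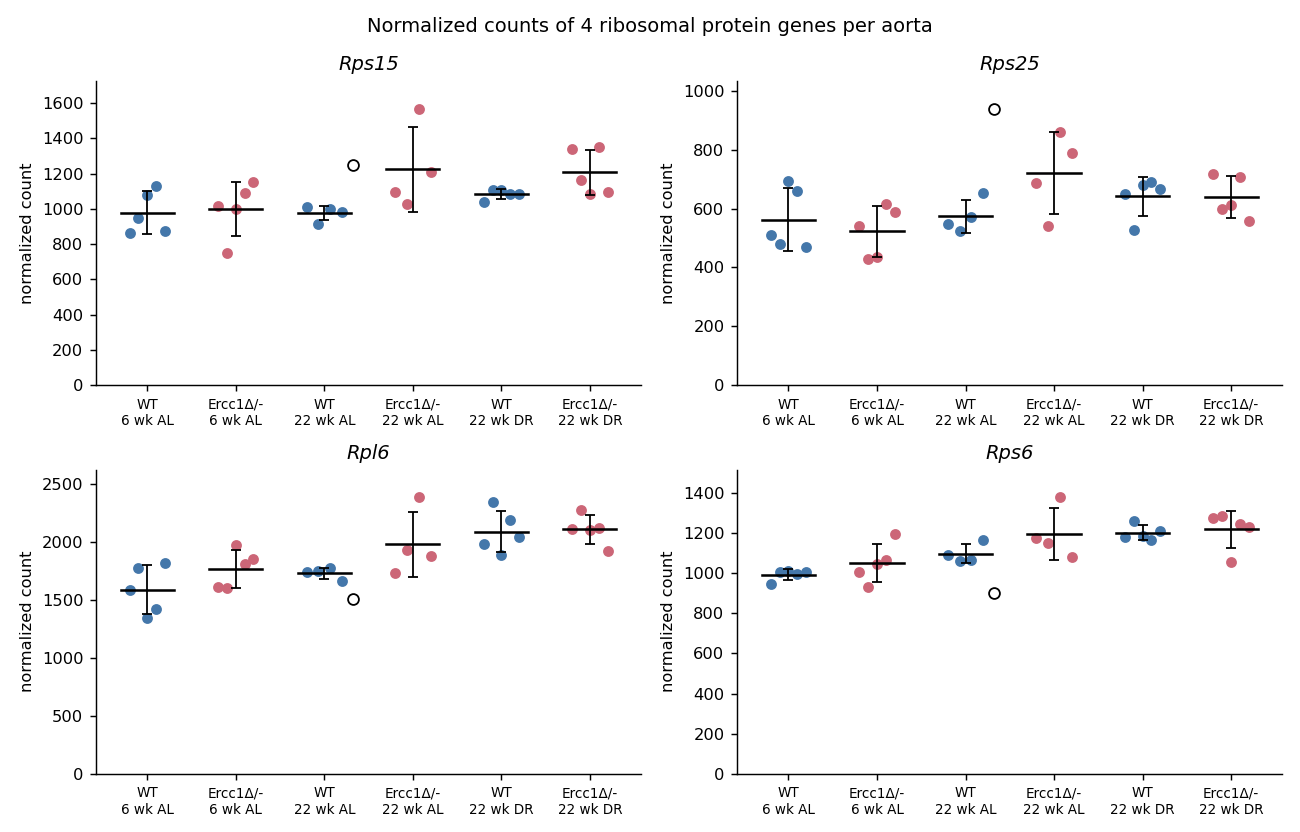
Normalized counts of Rps15, Rps25, Rpl6 and Rps6, 1 point per mouse (blue WT, red Ercc1Δ/-, open circle sample 003), with the mean and SD of each group without sample 003. Rps15 separates the genotypes at 22 weeks on AL (1027 to 1568 against 915 to 1008). Rpl6, Rps6 and Rps15 separate DR from AL in WT mice, while the groups of Ercc1Δ/- mice overlap in all 4 genes.

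Within a sample the genes tended to lie on the same side of their means. In sample 013, 53 of the 55 genes lay above their own mean over 28 samples on the log2 scale, and in sample 008, an Ercc1Δ/- mouse of 6 weeks, 0 of 55 did, whereas 50.4% and 51.6% of all tested genes lay above their means in these samples. Among WT mice of 22 weeks the number was 6 to 23 in the 4 AL samples and 32 to 53 in the 5 DR samples. In WT mice of 6 weeks it was 4 to 6 in samples 001, 009 and 024 and 23 and 32 in samples 019 and 011. The latter are the shallowest libraries of that group, with 1368274 and 955589 gene counts beside at least 3627249, and the part of depth in this was not tested. With all samples thinned to the lowest total (921167 counts) the medians over the 55 genes were 0.21 for genotype at 22 weeks on AL, 0.21 for age in Ercc1Δ/- mice and 0.17 for DR in WT mice.

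The medians of the large and the small subunit lay close together. For genotype at 22 weeks on AL the median log2 fold change was 0.18 over 33 large subunit genes and 0.23 over 22 small subunit genes, for age in Ercc1Δ/- mice 0.23 and 0.22, and for DR in WT mice 0.16 and 0.15. Genes with and without a TOP tract at the annotated start had similar medians as well. For DR in WT mice the median was 0.15 over 21 tested genes with the tract and 0.14 over 24 without it, for age in Ercc1Δ/- mice 0.23 in both, and for genotype at 22 weeks on AL 0.21 in both. Rps6 and Rpl18, which hold the tract at the annotated start, and Rpl6 and Rpl5, which do not, are among the 20 genes whose groups separated with DR in WT mice. The split follows annotated starts alone, so it cannot tell whether mRNAs with and without a TOP motif differ.

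In some comparisons the log2 fold change went with the coding length of the gene. The length of the gene on the chromosome was not compared. Across 53 genes, which are not independent replicates and share the same libraries, the log2 fold change with age in Ercc1Δ/- mice had a Spearman correlation of -0.54 (Pearson -0.51) with the coding length, for genotype at 22 weeks on AL -0.33 (Pearson -0.34) and for genotype on DR -0.35 (Pearson -0.29). For genotype at 6 weeks it had the opposite sign, 0.30 (Pearson 0.27), and with age in WT mice it was 0.13 (Pearson 0.14). For DR it was positive, 0.26 in WT (Pearson 0.27) and 0.14 in Ercc1Δ/- mice (Pearson 0.18). The shortest coding lengths were those of Rpl38 (210 bases), Rps21 (249 bases) and Rps27 (252 bases).

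Of the genes with known roles beyond protein synthesis, Rpl5 separated the groups in both the genotype comparison at 22 weeks on AL and the diet comparison in WT. Its normalized counts were 1650.3, 1640.2, 2104 and 1523 in Ercc1Δ/- mice of 22 weeks on AL, 1319, 1468, 1439.9 and 1473 in WT mice of that age on AL and 1723, 1660.4, 1604, 1723 and 1557 in WT mice on DR. Both the Ercc1Δ/- and the DR samples lay above the 4 WT samples on AL, although not all above sample 003 (1659.9), with log2 differences of 0.27 ± 0.10 (SE, edgeR adjusted p = 0.0823) and 0.21 ± 0.09 (SE, edgeR adjusted p = 0.306). Its partner Rpl11 stood at 766, 712, 1046 and 854 normalized counts in the Ercc1Δ/- mice on AL, at 686, 701, 679 and 774 in the WT mice on AL and at 748, 747, 842, 857 and 794 in the WT mice on DR. The Ercc1Δ/- and DR samples each overlapped with the WT samples on AL, with log2 differences of 0.27 ± 0.12 (SE, edgeR adjusted p = 0.16) and 0.16 ± 0.10 (SE, edgeR adjusted p = 0.541).

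Rpl10a, a protein of the large subunit, had a log2 difference of -0.018 ± 0.11 (SE) for genotype at 22 weeks on AL (95% interval -0.23 to 0.19) and -0.015 ± 0.10 (SE) with age in Ercc1Δ/- mice (95% interval -0.21 to 0.18), the lowest value of the 55 genes in the latter. Rpl22, which regulates lymphocyte development, had 0.043 ± 0.12 (SE, 95% interval -0.19 to 0.28) for genotype at 22 weeks on AL, and its paralog Rpl22l1 0.092 ± 0.21 (SE, 95% interval -0.32 to 0.51). Rps26, a small subunit protein at the mRNA exit channel, had 0.12 ± 0.10 (SE, edgeR adjusted p = 0.672) with DR in WT mice, where each DR sample (512 to 549) lay above each AL sample (446 to 512). Rps26 thus belongs to the 20 genes that separated, with a margin under 1 normalized count. Rps10 had the widest spread within groups of the 55 tested genes (0.45 on the log2 scale, beside a median of 0.16 for the 53 genes without a large exon overlap), at 3 to 44 counts a sample.

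The 23 ribosomal protein genes outside the list had medians close to those of the 55. Their medians were 0.26 for genotype at 22 weeks on AL (23 of 23 positive), 0.24 for age in Ercc1Δ/- mice (22 of 23) and 0.14 for DR in WT mice (22 of 23), and -0.0053 for DR in Ercc1Δ/- mice. Rplp1, an acidic protein of the stalk of the large subunit, rose by 0.42 ± 0.12 (SE) with age in Ercc1Δ/- mice (edgeR adjusted p = 0.0498), just past the limit. Rplp1 stood at 1266, 1149, 1858 and 1396 at 22 weeks and 1119, 885, 933, 1235 and 1090.5 at 6 weeks, with sample 013 again the highest. The call was unstable: it held in 8 of 21 alternative analyses and ended without any of 7 samples (002, 004, 008, 013, 015, 026 and 027). The direction was positive in all 21. Of 8 paralogs with restricted roles, Rpl7l1, Rpl22l1, Rps4l and Rps27l were tested in the 7 comparisons of 2 groups and 0 were DEGs. Rps27l, a target of p53, had the largest difference of these 4 for genotype at 22 weeks on AL, 0.48 ± 0.24 (SE, edgeR adjusted p = 0.208).

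Ribosome biogenesis genes, whose products make and assemble ribosomal RNA and subunits, had medians nearer to 0. Over 67 ribosome biogenesis genes the median was -0.031 for genotype at 22 weeks on AL, 0.05 for age in Ercc1Δ/- mice and 0.0093 for DR in WT mice, with 0 DEGs in each. With DR in Ercc1Δ/- mice Ncl, the nucleolin of the nucleolus, rose by 0.36 ± 0.089 (SE, edgeR adjusted p = 0.0384) and Bop1, a factor of large subunit assembly, changed by -0.58 ± 0.14 (SE, edgeR adjusted p = 0.0384), 1 gene in each direction (2.99% of the list, beside 1.64% of all genes). Both directions held in the 21 alternatives, while the call of Ncl held in 10 (not without sample 004, 005, 006, 013, 026 or 029) and that of Bop1 in 9 (not without sample 005, 006, 013, 014, 022 or 026). The 77 tested mitochondrial ribosomal protein genes had medians of 0.22 for genotype at 22 weeks on AL, with 2 DEGs (Mrpl47 and Mrps18c, both higher, 2.6% of the list beside 12.0% of all genes), 0.11 for age in Ercc1Δ/- mice, 0.035 for DR in WT and -0.13 for DR in Ercc1Δ/- mice. The call of Mrpl47 held in 18 of 20 alternatives (not without sample 018) and that of Mrps18c in 3 (not without sample 004, 005, 012, 018, 020, 025 or 026).

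Of 35 genes of translation factors and other mRNAs with a TOP motif, 33 were positive with DR in WT mice (median 0.11), and 1, Vim, which encodes the filament protein vimentin, was a DEG (0.40 ± 0.097, SE, edgeR adjusted p = 0.0363), which is 2.86% of the list beside 1.28% of all genes. Of the same 35 genes, 9 were positive for genotype on DR (median -0.082), where Eif4g2, an initiation factor, and Vim were lower (-0.32 ± 0.067, SE, edgeR adjusted p = 0.00183, and -0.29 ± 0.09, SE, edgeR adjusted p = 0.0337), 5.71% of the list beside 13.0% of all genes. The call of Vim with DR held in 11 of 21 alternatives (not without sample 010, 017, 018, 020, 021 or 025) and that of Vim for genotype on DR in 12 of 22 (not without sample 007, 010, 016, 017, 021, 022 or 029), whereas that of Eif4g2 held in 20 of 22, ending when scaled by library size alone and in the test against 1.2-fold.

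Among 39 tested genes of mTOR and nutrient sensing, 6 rose and 1 fell for genotype at 22 weeks on AL (17.9% of the list, beside 12.0% of all genes), 8 rose and 0 fell for genotype on DR (20.5%, beside 13.0%), and 2 rose with age in Ercc1Δ/- mice (5.13%, beside 4.69%). The genes called included inhibitors of mTORC1 and genes that act toward its activation. Of the inhibitors, Sesn2 was higher in Ercc1Δ/- mice both on AL (0.73 ± 0.16, SE, edgeR adjusted p = 0.00424) and on DR (0.81 ± 0.15, SE, edgeR adjusted p = 0.000749), as was Deptor (1.08 and 0.73). Ddit4l was higher on AL (1.34) and with age in Ercc1Δ/- mice (1.06), and Ddit4 (2.15), Sesn1 (0.53), Sesn3 (0.35) and Tsc1 (0.38) were higher on DR. On the activating side, Rragd, a GTPase that helps to bring mTORC1 to the lysosome, rose for genotype on AL (1.39 ± 0.34, SE, edgeR adjusted p = 0.00857) and with age in Ercc1Δ/- mice (1.52 ± 0.35, SE, edgeR adjusted p = 0.0124). Flcn, which acts on the same GTPases, was higher on AL (0.51) and on DR (0.37). Of other genes on the list, the kinase Rps6ka1 was higher on AL (1.22) and the transcription factor Myc on DR (1.15). Rptor, the scaffold of mTORC1, was the gene that fell on AL (-0.49 ± 0.12, SE, edgeR adjusted p = 0.0113). With DR 0 of the 39 passed in WT mice, and in Ercc1Δ/- mice 1 did, Tsc1 (0.69 ± 0.14, SE, edgeR adjusted p = 0.00881). The direction of each of these held in each alternative. The calls held in 18 to 21 of 20 to 22 alternatives for Sesn2 and Rragd in both comparisons, for Ddit4l and Flcn on AL, for Ddit4, Sesn1 and Myc on DR and for Tsc1 with DR. They held less often for Rptor (15 of 20), Rps6ka1 (13 of 20), Deptor (9 of 20 on AL and 12 of 22 on DR), Ddit4l with age (14 of 21), Flcn and Tsc1 on DR (14 of 22 each) and Sesn3 (6 of 22). Samples whose omission ended a call on AL were 004, 018 (Rptor), 004, 005, 018, 025, 026 (Rps6ka1), 004, 005, 012, 018, 020, 025 (Deptor) and 018 (Rragd), and with age 002, 004, 005, 026 (Ddit4l) and 004, 013 (Rragd). On DR they were 006, 007, 010, 014, 028, 029 (Deptor), 006, 007, 010, 014, 029 (Flcn), 007, 010, 022, 029 (Tsc1) and all but 021 and 022 (Sesn3), and for Tsc1 with DR it was 004. Their medians stayed between -0.055 and 0.077 in the 7 comparisons.

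**Figure D5:**
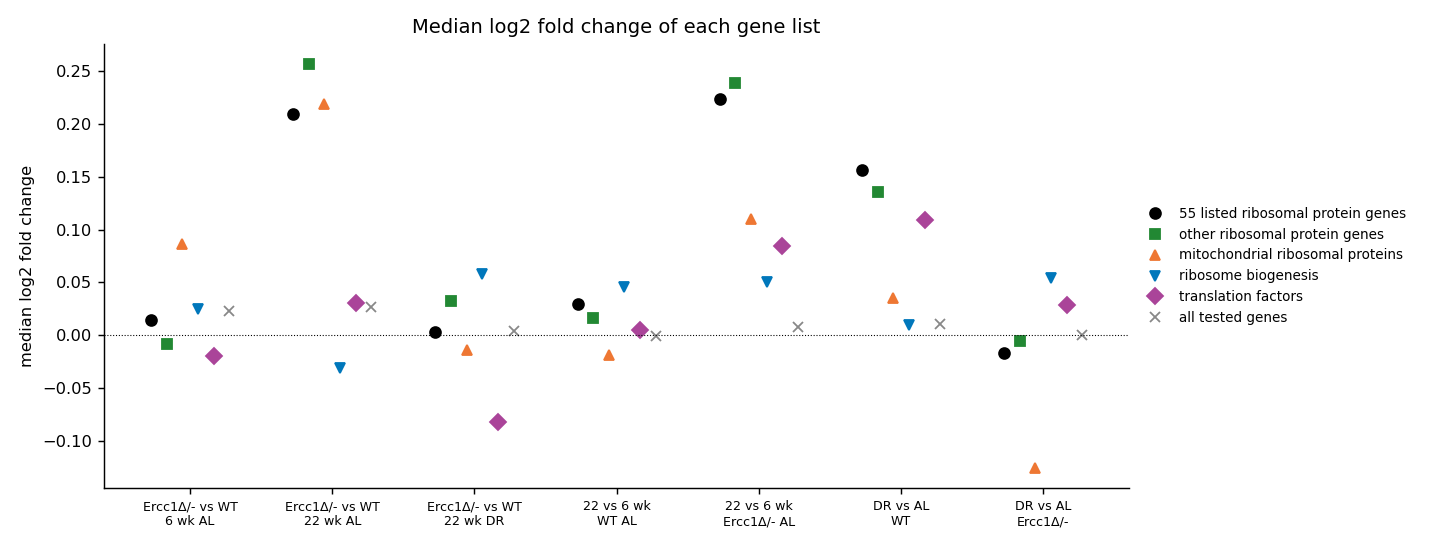
Median log2 fold change of the listed ribosomal protein genes, 4 related gene lists and all 12353 tested genes in the 7 comparisons of 2 groups. The listed and the other ribosomal protein genes lie close together (0.21 and 0.26, 0.22 and 0.24, 0.16 and 0.14 in the 3 comparisons with a shift), while the ribosome biogenesis genes stay between -0.031 and 0.058.

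Markers of some cell types differed between the same groups by more than the ribosomal protein genes. Of 10 macrophage markers 9 rose for genotype at 22 weeks on AL (median 1.47), 6 rose with age in Ercc1Δ/- mice (median 1.05) and 5 fell with DR in Ercc1Δ/- mice (median -0.80), while with DR in WT mice 1 fell (median -0.38). With DR in WT mice the medians were also below 0 for 3 tested leukocyte markers (-0.95), 8 endothelial markers (-0.45), 8 fibroblast markers (-0.27) and 4 proliferation markers (-0.78), with 0 DEGs in these lists, and it was 0.098 for 9 smooth muscle markers. Of 8 adipocyte markers 1, Lep, was a DEG there (-3.09 ± 0.39, SE, edgeR adjusted p = 7.63e-05), which is 12.5% beside 1.28% of all genes. The adipocyte markers summed to 1563 to 10075 normalized counts on DR and 2215 to 3772 on AL in WT mice of 22 weeks. For genotype at 22 weeks on AL the fibroblast and endothelial medians were -0.0061 and -0.051, nearer to 0 than that of the 55 genes. Single markers differed all the same. Of the 8 fibroblast markers 3 were DEGs, all lower (Col14a1 -0.65, Pi16 -0.74 and Serpinf1 -0.59), which is 37.5% beside 12.0% of all genes. Of the 8 endothelial markers 1 was a DEG (12.5%), Emcn, which was higher (0.97). Macrophage markers summed to 2319 to 4286 normalized counts in Ercc1Δ/- and 1006 to 1515 in WT mice of 22 weeks on AL. On DR the macrophage sums were 1534 to 4904 in Ercc1Δ/- and 634 to 1189 in WT mice. Of 9 smooth muscle markers 7 fell for genotype at 22 weeks on AL (77.8%, beside 12.0% of all genes). The 9 markers summed to 62588 to 96882 in Ercc1Δ/- and 119442 to 142584 in WT mice on AL. Sample 013, the highest for the ribosomal protein genes, was the lowest of its group for the macrophage markers. The part of cell composition in the values of the ribosomal protein genes was not tested.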

How the data were processed

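The data were RNA-seq of 29 aortic arches. The authors deposited raw whole-number counts for each gene and mouse, with no normalization. The submitters' processing notes name bcl2fastq 2.20, UMI-tools 1.1.2, STAR 2.7.10a, HTSeq 2.0.2 and DESeq2 1.34.0 and the build GRCm39. Libraries were made with a directional kit, duplicates were removed by molecular identifiers and reads were counted over the gene body, so that reads in introns count too. The 5 lines of unassigned reads held 7.27% to 10.1% of reads outside genes, 1.40% to 1.82% ambiguous reads and 3.66% to 7.06% reads without a unique alignment in the 28 samples, and were kept out of library sizes and tests. Ribosomal protein genes have many near-identical pseudogenes, and reads without a unique alignment are not counted, which can lower their levels. Positions, lengths and overlaps of genes were read from GENCODE on GRCm39, in a later release than that of the authors.

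Genes were tested by the robust quasi-likelihood F test of edgeR 4.0.16 with TMM scaling, in R 4.3.3 with limma 3.58.1, and tables were made in Python 3.11.15. The model held terms for group and sex. One fit over the 18 samples on AL gave the effects of genotype and age, and another over the 18 samples of 22 weeks gave those of diet and of genotype on DR. To count as a DEG, a gene needed 1.2-fold (0.26 on the log2 scale) and an adjusted p (Benjamini-Hochberg over 12353 genes) no higher than 0.05. The fold was not limited in interactions. For single genes, the group means were compared by exact permutation (two-sided). Tested on simulated data with 200 genes changed 3-fold among 12353, the fit recovered 184 for genotype at 22 weeks on AL (with 11 false calls) and 175 for DR in Ercc1Δ/- mice (with 14 false calls). Folds as small as those of the ribosomal protein genes were not simulated. Each mouse gave 1 sample, so the edgeR p-values set a group difference against the spread between mice. That spread was estimated from all groups in the fit, with information shared across genes. As alternatives, each fit was repeated with DESeq2 1.42.0, with RLE factors or library size only, with TMM that ignored ribosomal protein genes, on unfiltered genes, on thinned counts, with sample 003, with no term for sex, on the compared groups or on all 6 groups, against a 1.2-fold null, with the earlier dispersion method of edgeR (chosen after seeing the data) and without each sample in turn.

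The genes and lists were chosen with earlier results of these data known. Named were the gene with the smallest p in each comparison (none passed), the 3 highest and 3 lowest by level per kb, the gene with the widest spread, and Rpl5, Rpl11, Rps6, Rpl10a, Rpl22, Rpl38, Rps14 and Rps26. Other names, such as those that separated without overlap, were chosen after their values were seen. The lowest by level per kb were taken among the 53 genes without a large exon overlap, a choice made after seeing the data, and Rpl13a, Rps10 and Rpl24 are given beside them. For the genes outside the list, 1 result is not reported here.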

Additional observations from a re-analysis of the deposited data

Results flagged for a closer look

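In groups of 4 or 5 mice, the gap of the highest or lowest sample to the next was compared with Dixon's 95% limit in 126 groups of values (the summed share and 20 single genes in 6 groups). The limit was passed in 7. Chance gives 1 in 20 for independent values. These values share the same samples, so the count of 7 cannot be set against that rate. In Ercc1Δ/- mice of 22 weeks on AL, sample 013 stood apart for Rps14 (2603 normalized counts, beside 1580.0 to 1749 in the other 3) and Rpl10a (1197 beside 872 to 924). In WT mice of 6 weeks, sample 001 stood apart for Rps6 (946 beside 996 to 1012) and Rpl19 (359 beside 348 to 351). In WT mice of 22 weeks on AL, sample 025 stood apart for Rpl10 (1923 beside 1740.0 to 1763). On DR, sample 010 of the WT mice stood apart for Rps25 (527 beside 650 to 689) and sample 016 of the Ercc1Δ/- mice for Rps6 (1058 beside 1231 to 1287). The value of sample 013 for the summed share, 2.02%, did not pass the limit for 4 samples.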

How the results depend on the processing

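The number of DEGs among the 55 genes was 0 in each of the 9 comparisons and remained 0 in 195 of 204 alternative results. For genotype at 22 weeks on AL it was 6 with library size only (Rpl5, Rpl18, Rpl19, Rps4x, Rps9 and Rps15), 4 with only the compared groups (Rpl30, Rpl32, Rps15 and Rps25) and 2 with all 6 groups in the fit (Rpl5 and Rpl19). For age in Ercc1Δ/- mice it was 1 with DESeq2 (Rpl5), 4 with library size only and 4 with all 6 groups (in both Rpl5, Rpl10, Rpl14 and Rps25), and with 1 sample left out it ran from 0 to 5. For genotype on DR it was 2 with library size only (Rps14 and Rps19). Of all 12353 genes, library size only called 1582 for genotype at 22 weeks on AL and 1664 for genotype on DR. For age in Ercc1Δ/- mice it called 627, and the fit without sample 023 called 567. In the other comparisons DESeq2 called 0 as well. Library size only also moved the median of all genes, to 0.093 for genotype at 22 weeks on AL, 0.075 for age in Ercc1Δ/- mice and 0.082 for genotype on DR. The medians of the 55 genes were then 0.28, 0.29 and 0.080. The median over the 55 genes kept its sign in each alternative for genotype at 22 weeks on AL (0.10 to 0.28), age in Ercc1Δ/- mice (0.12 to 0.29), age in WT mice (0.014 to 0.083), DR in WT mice (0.12 to 0.17) and both interactions, and changed sign for genotype at 6 weeks, genotype on DR and DR in Ercc1Δ/- mice. The summed share moved by more than 1 SD without mitochondrial genes in the total in WT mice of 6 weeks (1.42%), WT mice of 22 weeks on AL (1.49%) and on DR (1.65%) and Ercc1Δ/- mice on DR (1.77%), and with annotated pseudogene copies added in WT mice of 22 weeks on AL (1.49%) and on DR (1.64%), with the other groups within 1 SD. No paired analysis was possible because each mouse gave 1 sample and the sample numbers are not shared between groups. The shallowest libraries (921167 to 1576566 counts) limit what single genes can show, and the median SE over the 55 genes was 0.0908 to 0.121 on the log2 scale in the 7 comparisons of 2 groups.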
